A study of Mus musculus with 62 samples.

Results

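The mRNA of C2C12 cells overexpressing RPL3L was compared with that of C2C12 cells overexpressing RPL3, which asks how the transcriptome differs when one or the other of these ribosomal proteins is supplied in excess. The comparison rests on 6 RNA-seq libraries, 3 of RPL3L OE and 3 of RPL3 OE, out of 62 samples in the series. They were taken by their labels and not by any measured value. Of 10476 genes with a line in the count table, 5728 had a mean count of at least 10 over the 9 C2C12 RNA-seq libraries and were tested, each represented by its transcript with the highest mean count. Gene classes other than muscle contraction and muscle differentiation are described.

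C2C12 is a mouse myoblast line. All cells, controls included, were infected with the retroviral vector pCX4/puro and selected with puromycin. The vector was empty for the control cells, carried mouse RPL3 cDNA for the RPL3 OE cells and carried mouse RPL3L cDNA for the RPL3L OE cells, and the cells were kept proliferating at low confluence in medium with 10% serum. The sources describe 3 biologically independent samples per group but do not say whether each came from its own infection, so p-values measure the spread between these cultures.

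RPL3 is a protein of the large ribosomal subunit that lies close to the peptidyl transferase center, where peptide bonds are made. RPL3L is its paralog, found mainly in heart and skeletal muscle, where it takes the place of RPL3 in a share of the ribosomes. Myoblasts are proliferating muscle precursors that also make and remodel extracellular matrix, and they normally contain little RPL3L.

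Rpl3l was read first as a check of the labels. The RPL3L OE libraries held 16434, 17915 and 19389 Rpl3l reads, whereas the RPL3 OE libraries held 1, 7 and 3. The groups were thus fully separated in the direction of their labels. Rpl3 lies on the minus strand, whose transcripts are not analysed here, so overexpression in the RPL3 OE libraries could not be checked in the same way. Every matched transcript in the table lies on the plus strand, and each list of genes below therefore covers only its members on that strand. Total counts were 7647102 to 11669868 in the RPL3 OE libraries, 8091836 to 9715596 in the RPL3L OE libraries and 14324795 to 29746110 in the control libraries. In a principal component analysis, the first component (56.3% of the variance) placed RPL3L OE at 10.88 to 11.22, RPL3 OE at −10.57 to −9.34 and the controls at −1.55 to −0.51.

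A gene is called here when edgeR's quasi-likelihood test gave it an adjusted p under 0.05, with Benjamini-Hochberg adjustment over all tested genes. RPL3L OE and RPL3 OE differed in 1587 genes (27.7% of those tested), of which 772 (13.5%) were higher and 815 (14.2%) lower in RPL3L OE. Most differences were small: the median absolute log2 fold change of the called genes was 0.297, and only 127 of them differed by at least 2-fold, 79 higher and 48 lower. The median over all tested genes was −0.0034. Against the same 3 control libraries, 570 genes (9.95%) were called in RPL3L OE, of which 5.24% of all tested genes were higher and 4.71% lower, and 1000 (17.5%) in RPL3 OE, with 9.08% higher and 8.38% lower. The CPM of the 3 RPL3L OE and the 3 RPL3 OE libraries did not overlap for 2229 genes (38.9%), so that a gene without overlap is common here. The control mean lay between the means of the overexpressing groups for 1299 of the 1587 called genes. Levels are given as CPM, the count scaled to a library of 1000000 counts, with library sizes adjusted by edgeR's TMM method, with values in the order of replicates 1, 2 and 3, and fold changes are RPL3L OE relative to RPL3 OE unless stated otherwise.

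Among genes with a mean count of at least 100, the largest increases after Rpl3l were in Pdlim3, Zfp985 and Mgam. Pdlim3 (GRCm38, chr8:45885461-45919548), which encodes a PDZ and LIM domain protein that binds α-actinin at muscle Z-discs, gave 36.0, 40.04 and 39.9 CPM in RPL3L OE and 5.33, 5.01 and 4.84 CPM in RPL3 OE. The control libraries gave 32.9, 32.9 and 27.8 CPM, so that the RPL3 OE libraries stood apart from the other two groups. The fold change of Pdlim3 was 7.66 (log2 2.94 ± 0.18, SE; adjusted p = 6.9e-22).

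Igfbp2 (chr1:72824503-72852474), whose product binds insulin-like growth factors outside the cell, had the smallest p-value among the increases after Rpl3l. Its level was 1151, 1232 and 1258 CPM in RPL3L OE, 300, 295 and 284 CPM in RPL3 OE and 856, 821 and 825 CPM in the controls (log2 2.05 ± 0.04, SE; adjusted p = 4.1e-49). The 3 groups did not overlap: RPL3L OE was above the controls and RPL3 OE below them. Robo1, a receptor for the Slit guidance proteins, showed the same order, with 34.6 to 40.1 CPM in RPL3L OE, 8.59 to 12.96 CPM in RPL3 OE and 26.9 to 27.6 CPM in the controls (log2 1.71 ± 0.15, SE). Loxl2, a lysyl oxidase that cross-links collagen, was at 121, 120 and 131 CPM in RPL3L OE and at 51.5, 38.8 and 40.4 CPM in RPL3 OE (log2 1.52 ± 0.09, SE). Akap12, a scaffold for protein kinase A, gave 191, 208 and 204 CPM against 74.6, 70.7 and 70.0 CPM (log2 1.49 ± 0.07, SE). All 3 genes were also called higher in RPL3L OE than in the controls and lower in RPL3 OE than in the controls.

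For Adgrg1 and Add2, the RPL3 OE mean lay further from that of the controls than the RPL3L OE mean did. Adgrg1, an adhesion G protein–coupled receptor, had means of 30.6 ± 3.03 CPM in RPL3L OE, 7.10 ± 1.41 CPM in RPL3 OE (SD, n = 3) and 31.0 CPM in the controls (log2 2.07 ± 0.17, SE). Add2, the β subunit of adducin at the spectrin-actin junction, had means of 79.0 ± 4.88 CPM, 29.4 ± 1.14 CPM (SD, n = 3) and 71.8 CPM in the same order (log2 1.43 ± 0.10, SE). Mgam, a maltase-glucoamylase better known from the intestine, was above the controls in RPL3L OE and below them in RPL3 OE, at 32.8 ± 2.64 CPM in RPL3L OE, 6.53 ± 2.15 CPM in RPL3 OE (SD, n = 3) and 18.5 CPM in the controls (log2 2.27 ± 0.18, SE). Stmn4 (log2 1.95 ± 0.18, SE), a stathmin that binds tubulin, and Pde10a (log2 1.54 ± 0.16, SE), a phosphodiesterase of cyclic nucleotides, were also among the 15 largest increases of genes with a mean count of at least 100.

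Among genes with a mean count of at least 100, the largest decreases were in Cxcl12, Slc16a3 and Dysf. Cxcl12 (chr6:117168577-117181367), a chemokine that attracts cells bearing CXCR4, gave 9.40, 13.6 and 13.6 CPM in RPL3L OE, 42.9, 50.1 and 53.8 CPM in RPL3 OE and 16.9, 14.8 and 16.9 CPM in the controls (log2 −2.003 ± 0.15, SE; adjusted p = 7.2e-18). RPL3 OE was the group that stood apart, above both others. Slc16a3, the monocarboxylate transporter MCT4 that exports lactate, was at 10.2, 11.8 and 9.90 CPM in RPL3L OE and at 24.6, 31.9 and 27.1 CPM in RPL3 OE (log2 −1.39 ± 0.17, SE). Here the controls (20.3, 20.9 and 21.4 CPM) lay between the groups, and both overexpressing groups differed from them.

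Aqp5, a water channel, was measured at 230, 210 and 239 CPM in RPL3L OE, 485, 467 and 472 CPM in RPL3 OE and 313, 309 and 315 CPM in the controls (log2 −1.07 ± 0.05, SE; adjusted p = 2.1e-29). The 3 groups were again fully separated. Ogn, the small leucine-rich proteoglycan osteoglycin, fell by 1.11 ± 0.11 (SE) on the log2 scale, and Dysf, which encodes the membrane repair protein dysferlin, fell by 1.33 ± 0.17 (SE). Cavin2, a coat protein of caveolae, was at 38.5 ± 2.73 CPM in RPL3L OE, 76.9 ± 2.64 CPM in RPL3 OE (SD, n = 3) and 67.0 CPM in the controls, so that here RPL3L OE was the group set apart. Galnt10, a transferase that begins mucin-type O-glycosylation, followed with 128 ± 8.94 CPM and 230 ± 4.06 CPM (SD, n = 3; log2 −0.84 ± 0.06, SE). Ptgs2, the inducible prostaglandin synthase, was lower in RPL3L OE (77.4, 60.6 and 68.6 CPM) than in RPL3 OE (126, 113 and 142 CPM), although both groups were above the controls (50.9, 46.4 and 45.9 CPM).

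**Figure D1:**
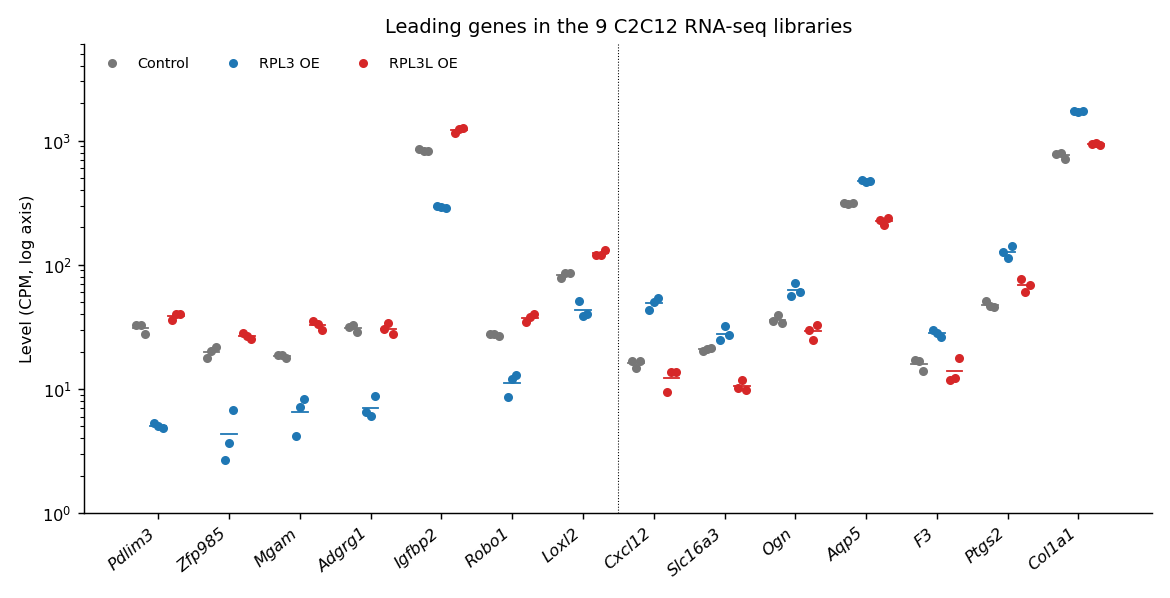
Levels of 14 leading genes in each of the 9 C2C12 RNA-seq libraries, in CPM on a log axis. Points are libraries and short lines are group means; the dotted line separates genes higher in RPL3L OE (left) from genes lower in RPL3L OE (right). The RPL3L OE and RPL3 OE points of each gene do not overlap, and for Igfbp2 the 3 groups run from about 293 CPM in RPL3 OE through 834 CPM in the controls to 1214 CPM in RPL3L OE.

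A cluster of zinc finger genes on chromosome 4 held 4 of the increases named by size or by rank in the zinc finger list: Zfp985, Zfp600, Zfp980 and Zfp990, with Rex2 between them. These genes encode DNA-binding proteins with arrays of C2H2 zinc fingers, many with a KRAB repressor domain. The cluster was singled out after the values were seen and its bounds were set by called genes, so its counts are a description. Between the first and the last of them (GRCm38, chr4:145514884-147585198) 9 genes were tested, of which 6 were called higher and 3 (Gm13212, Zfp992 and Zfp991) were not called. Zfp985 gave 28.5, 26.9 and 25.3 CPM in RPL3L OE, 2.67, 3.69 and 6.77 CPM in RPL3 OE and 17.9, 20.1 and 21.6 CPM in the controls (log2 2.52 ± 0.21, SE). Zfp600 (log2 1.95 ± 0.18, SE), Zfp980 (log2 1.78 ± 0.19, SE), Rex2 (log2 1.76 ± 0.16, SE) and Zfp990 (log2 1.55 ± 0.35, SE) kept their calls whichever library was left out. Zfp981 (log2 0.92 ± 0.31, SE), named for its place in the cluster, was no longer called without RPL3 OE replicate 3, RPL3L OE replicate 1 or RPL3L OE replicate 2. The other 154 zinc finger genes named Zfp that were tested outside the cluster had 10 called higher and 6 called lower. Both shares were below the 13.5% higher and 14.2% lower among all tested genes. The median log2 fold change of these 154 genes was 0.052.

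The promoters of the leading members are printed for comparison. RefSeq (GRCm38.p6) had a promoter window of 250 bases before to 50 bases after the transcription start for 6 of the 9 tested genes, and those of the 4 leading members follow, on the plus strand of chromosome 4. For a gene with several windows, the window sharing the longest stretch with that of Zfp985 was taken. The printed windows were thus selected for likeness. Capitals mark the longest stretch shared by all 4, which is 42 bases long.
Zfp985 (chr4:147553027-147553326): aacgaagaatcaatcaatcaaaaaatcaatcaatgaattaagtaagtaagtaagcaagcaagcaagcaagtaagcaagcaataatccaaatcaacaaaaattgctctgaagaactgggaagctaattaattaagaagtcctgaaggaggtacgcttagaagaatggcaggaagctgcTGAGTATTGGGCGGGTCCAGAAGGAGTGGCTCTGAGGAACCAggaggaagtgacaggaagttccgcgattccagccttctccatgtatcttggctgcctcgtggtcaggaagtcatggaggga
Zfp980 (chr4:145670447-145670746): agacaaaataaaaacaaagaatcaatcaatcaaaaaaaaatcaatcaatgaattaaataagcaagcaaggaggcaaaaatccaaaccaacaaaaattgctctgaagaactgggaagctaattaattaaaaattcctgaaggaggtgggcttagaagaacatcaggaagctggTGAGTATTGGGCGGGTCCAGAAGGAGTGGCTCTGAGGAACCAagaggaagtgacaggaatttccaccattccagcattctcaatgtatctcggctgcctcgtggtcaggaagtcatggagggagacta
Zfp600 (chr4:146156577-146156876): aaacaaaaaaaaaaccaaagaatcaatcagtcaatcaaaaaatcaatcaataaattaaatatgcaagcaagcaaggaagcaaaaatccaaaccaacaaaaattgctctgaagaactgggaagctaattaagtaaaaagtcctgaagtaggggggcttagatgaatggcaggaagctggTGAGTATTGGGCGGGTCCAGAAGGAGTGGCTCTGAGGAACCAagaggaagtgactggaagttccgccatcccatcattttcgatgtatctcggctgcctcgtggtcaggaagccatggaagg
Rex2 (chr4:147021600-147021899): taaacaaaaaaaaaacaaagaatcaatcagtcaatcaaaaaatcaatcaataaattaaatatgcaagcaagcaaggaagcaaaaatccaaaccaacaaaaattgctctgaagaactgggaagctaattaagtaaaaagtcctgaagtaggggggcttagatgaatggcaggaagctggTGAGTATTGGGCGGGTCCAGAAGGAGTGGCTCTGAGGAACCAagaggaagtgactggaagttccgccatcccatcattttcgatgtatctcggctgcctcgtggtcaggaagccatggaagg

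The Zfp600 and Rex2 windows were identical over 299 aligned bases, and the other pairs were 90.1% to 92.2% identical over their aligned bases. The shared stretch was found on either strand in 6 of 32841 RefSeq promoter windows (0.0183%), each belonging to a different gene of chromosome 4: Zfp980, Zfp600, Rex2, Zfp988, Zfp982 and Zfp985. Zfp985, Zfp980, Zfp600 and Rex2 hold it by definition, so the search itself added only Zfp988 and Zfp982. Only promoter windows were compared, and the likeness of the transcripts was not measured. Where transcripts are near-identical, reads can map to several members. The count of any single member is therefore uncertain, and their increases may not be independent of each other. How multiply mapped RNA-seq reads were counted is not given in the sources used here.

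**Figure D2:**
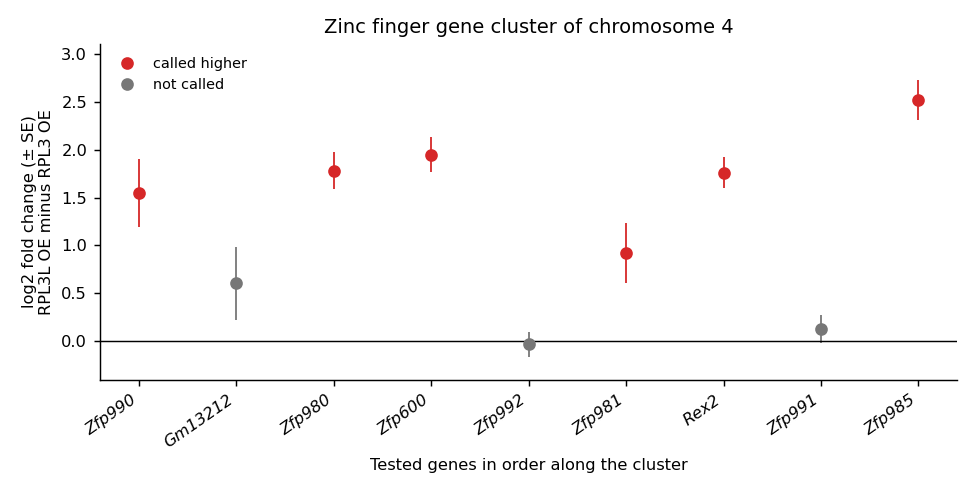
Log2 fold change (RPL3L OE minus RPL3 OE, RNA-seq; bars are SE) of the 9 tested genes of the chromosome 4 cluster, in their order along the chromosome. The 6 genes called higher reach from 0.92 (Zfp981) to 2.52 (Zfp985), and the 3 genes not called lie between −0.03 and 0.61.

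Among the gene lists with 15 or more tested members, the cytosolic ribosomal proteins and the genes of antioxidant defense had the largest shares of members lower in RPL3L OE. Of 46 tested cytosolic ribosomal protein genes, 25 were called lower and 2 higher (Rpl3l itself and Rpl7a), beside 14.2% lower and 13.5% higher among all tested genes. The differences were shallow, with a median log2 fold change of −0.098. Whether a gene is called depends on its read count as well as on the size of its difference. These 46 genes are abundant, with a summed level of 110500 to 113000 CPM in RPL3L OE. Shares called in lists of unlike abundance are therefore not on an equal footing, and the part of abundance was not tested. Rpl6 gave 3907, 3805 and 3661 CPM in RPL3L OE against 4637, 4242 and 4374 CPM in RPL3 OE (log2 −0.22 ± 0.03, SE), and the controls (4005, 4389 and 4165 CPM) overlapped with RPL3 OE. The largest decrease was in Rpl22l1, a paralog of Rpl22 (log2 −0.36 ± 0.05, SE), followed by Rpl6, the stalk protein gene Rplp0 (−0.21 ± 0.03) and Rpl17 (−0.21 ± 0.04). Rpl7a, at 0.08, was not called without control replicate 3, any single RPL3 OE replicate or RPL3L OE replicate 2. Without RPL3 OE replicate 1, 16 members rather than 25 were called lower. Against the controls, 9 members were lower and 1 (Rpl3l) higher in RPL3L OE, beside 4.71% and 5.24% of all tested genes. In RPL3 OE, 4 were higher and 0 lower, beside 9.08% and 8.38%. In the ribosome footprints of the same cell lines, 1 of 45 members was called lower and 1 (Rpl3l) higher. Of all genes tested there, 10% were lower and 9.32% higher. Ribosomal protein genes have many processed pseudogenes that share reads with them.

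**Figure D3:**
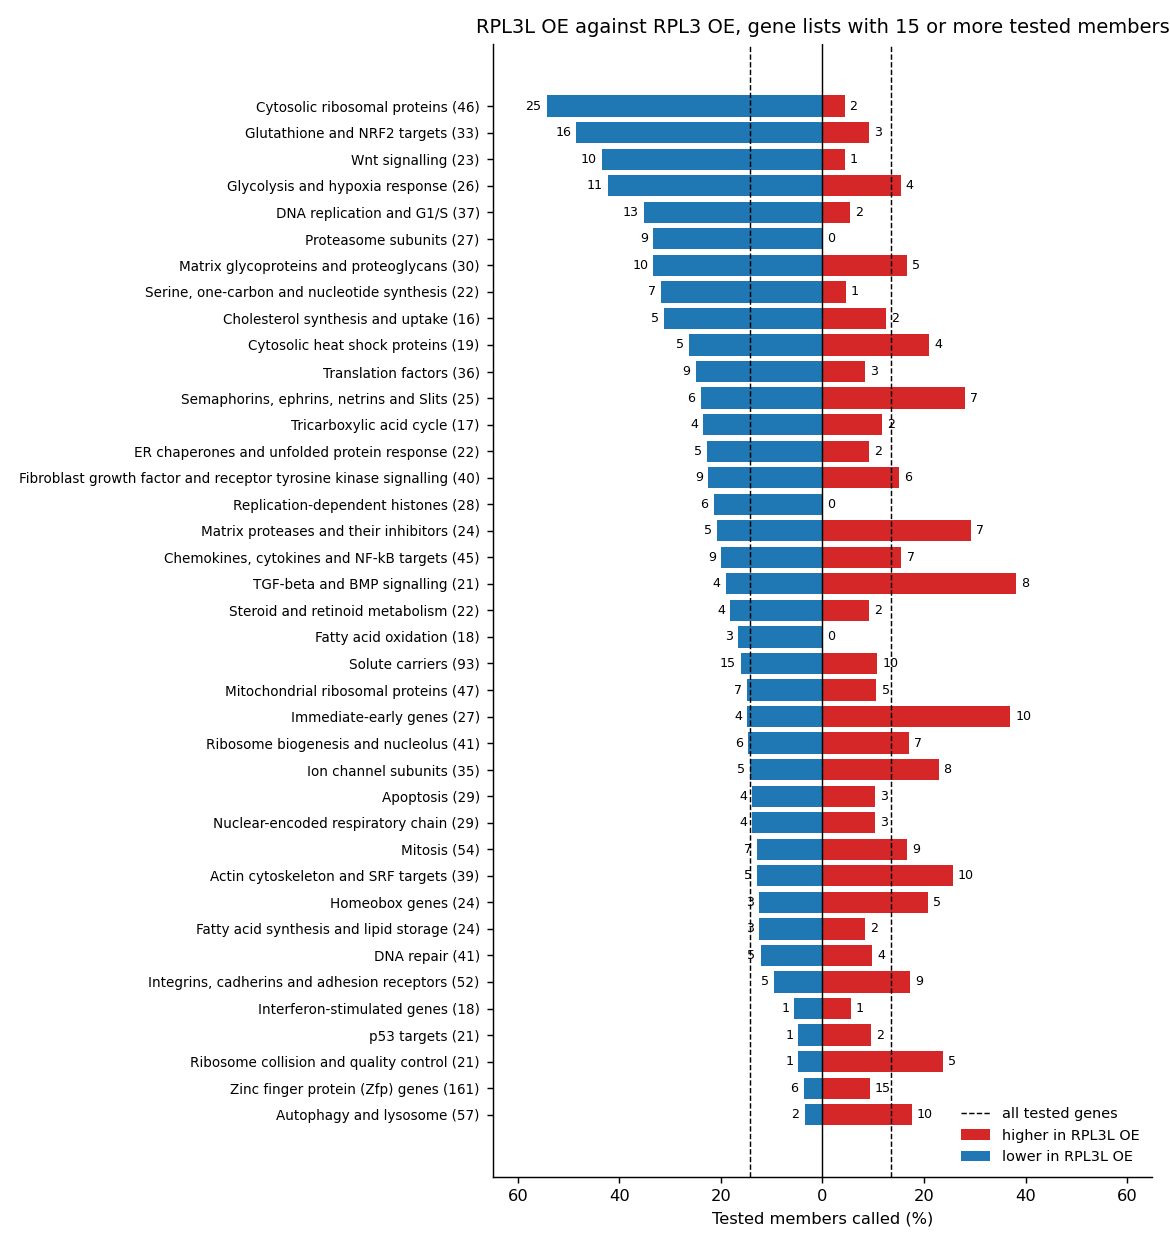
Share of tested members called higher (red, to the right) or lower (blue, to the left) in RPL3L OE than in RPL3 OE, in percent, for the 39 gene lists with 15 or more tested members outside the muscle lists. Numbers beside bars count the members, numbers in parentheses the members tested, and dashed lines mark the shares over all tested genes (13.5% higher, 14.2% lower); the cytosolic ribosomal proteins (25 of 46 lower) and the glutathione and NRF2 targets (16 of 33 lower) reach farthest to the left.

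Among 41 genes of ribosome biogenesis and the nucleolus, 7 were higher and 6 lower (31.7% called, close to the 27.7% of all tested genes), with Lyar (−0.34 ± 0.04) and Nop10 (−0.34 ± 0.07), a protein of H/ACA particles that guide pseudouridylation, lower and Nop2 (0.27 ± 0.05), an rRNA methyltransferase, and Polr1a (0.26 ± 0.06), the largest subunit of RNA polymerase I, higher (log2 ± SE). Translation factors had 3 of 36 members higher and 9 lower (33.3% called). Eif5, the GTPase-activating protein of the scanning ribosome, fell by 0.34 on the log2 scale and Eif2a by 0.30, whereas Eif4e2, a cap-binding protein that represses translation, was higher by 0.19. Of 21 genes of ribosome collision and quality control, 5 were higher, all by small amounts (0.13 to 0.28, Ascc2 the largest), and 1 was lower, a number that was 0 without RPL3 OE replicate 1 or RPL3L OE replicate 3 and 2 without RPL3 OE replicate 2 or RPL3L OE replicate 1. Among 7 targets of the integrated stress response, Atf4 (0.22) was higher and Eif4ebp1 (−0.17) lower, the latter not called without RPL3 OE replicate 2. The collision and stress response lists each had 28.6% of members called, close to the 27.7% of all tested genes. The 47 mitochondrial ribosomal protein genes had 5 members higher and 7 lower, a share of 25.5% that is close to the 27.7% called among all tested genes. Leaving out RPL3 OE replicate 3 or RPL3L OE replicate 3 took the lower members of the ribosome biogenesis list from 6 to 3, and leaving out RPL3 OE replicate 1 or RPL3L OE replicate 3 took those of the mitochondrial list from 7 to 3. The mitochondrial list had 3 higher members without RPL3 OE replicate 2 or 3 or RPL3L OE replicate 1 or 2, and 4 lower ones without RPL3 OE replicate 3 or RPL3L OE replicate 2. With DESeq2 it had 3 higher and 4 lower members, and with library totals in place of TMM 5 higher and 4 lower.

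Targets of the transcription factor NRF2, which drives glutathione synthesis and detoxification, together with the metallothioneins and ferritin, were lower in RPL3L OE as a group. Of 33 tested members, 16 were called lower and 3 higher, and the median log2 fold change was −0.142. The summed level of the list was 15790 to 15960 CPM in RPL3L OE, 18570 to 19030 CPM in RPL3 OE and 18630 to 19000 CPM in the controls, so that the RPL3L OE libraries stood below both other groups. Most of the difference from RPL3 OE came from Fth1: without it, the sum over the other 32 members was 9555 to 9631 CPM in RPL3L OE, 10500 to 10550 CPM in RPL3 OE and 11010 to 11310 CPM in the controls. Against the controls, 18 members were lower and 0 higher in RPL3L OE, whereas 9 were lower and 2 higher in RPL3 OE (beside 4.71% and 8.38% of all genes lower). In the Ribo-seq libraries, 13 members were lower and 3 higher, beside 10% lower and 9.32% higher among all genes tested there.

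The members differed in how the 3 groups were ordered. Fth1, the ferritin heavy chain that stores iron, gave 6181, 6185 and 6409 CPM in RPL3L OE, 8384, 8476 and 8022 CPM in RPL3 OE and 7619, 7538 and 7836 CPM in the controls (log2 −0.41 ± 0.03, SE; adjusted p = 8.0e-18). Hmox1, the heme oxygenase that releases iron from heme, showed the same order, with 36.8, 32.1 and 35.7 CPM, 48.3, 52.5 and 54.9 CPM, and 45.2, 46.4 and 45.4 CPM (log2 −0.58 ± 0.11, SE). In both, RPL3L OE was lowest and RPL3 OE highest. Mt2, a metallothionein that binds zinc and copper, was instead highest in the controls (471, 492 and 501 CPM), lower in RPL3 OE (403, 372 and 390 CPM) and lowest in RPL3L OE (262, 268 and 266 CPM; log2 −0.55 ± 0.04, SE). Gsta1, a glutathione S-transferase, had the order of Mt2, with 43.6 ± 5.57 CPM in RPL3L OE, 65 ± 2.99 CPM in RPL3 OE (SD, n = 3) and 93.0 CPM in the controls. Aldh3a1, an aldehyde dehydrogenase, had the largest decrease of the list (log2 −0.81 ± 0.09, SE). Of the 3 members called higher, Gstm5 (0.44), Akr1b8 (0.18) and Txnrd1 (0.10), 0 remained called without RPL3L OE replicate 1 and 1 without RPL3 OE replicate 1 or RPL3L OE replicate 3, whereas the lower members numbered 15 or 16 in every fit that left out a library.

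NRF2 acts through the antioxidant response element, and promoters of the list were searched for its core TGACNNNGC on both strands. A RefSeq window was at hand for 26 of the 33 tested members. The core was found in 8 of these 26 genes, beside 14.0% of 27018 genes with a window, and in 3 of 11 members called lower, 2 of 3 called higher and 3 of 12 not called. The 3 lower members, Gclm (the modifier subunit of the enzyme that starts glutathione synthesis), the peroxiredoxin Prdx1 and Mt2, are shown with 20 bases on either side of the core, Gclm and Prdx1 being named for this match and not by the rule, which is in capitals and reads on the opposite strand in Gclm and Prdx1.
Gclm (chr3:122245403-122245451, plus strand): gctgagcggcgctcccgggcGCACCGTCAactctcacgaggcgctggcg
Prdx1 (chr4:116685446-116685494, plus strand): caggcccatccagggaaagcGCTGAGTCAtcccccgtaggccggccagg
Mt2 (chr8:94172519-94172567, plus strand): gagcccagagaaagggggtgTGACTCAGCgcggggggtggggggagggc
A match describes these letters only; binding of a factor was not measured. Gclm was at 112, 97.5 and 108 CPM in RPL3L OE and at 137, 142 and 148 CPM in RPL3 OE (log2 −0.44 ± 0.07, SE), and Prdx1 fell by 0.16 ± 0.04 (SE) on the log2 scale.

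Metabolic lists are read against the 13.5% higher and 14.2% lower among all tested genes. Of 26 tested genes of glycolysis and the hypoxia response, 11 were lower and 4 higher, but 7 were lower without RPL3 OE replicate 3, and leaving out RPL3 OE replicate 2 left 2 higher. Besides Slc16a3, the decreases included Pdk1, the kinase that restrains entry of pyruvate into mitochondria (23, 24.6 and 23 CPM in RPL3L OE against 38.2, 48.0 and 43.1 CPM in RPL3 OE; log2 −0.88 ± 0.12, SE). P4ha1, a prolyl 4-hydroxylase of collagen, was lower (−0.34), whereas its paralog P4ha2 was higher (0.63). Genes of serine, one-carbon and nucleotide synthesis had 7 of 22 members lower and 1 higher (0 without RPL3L OE replicate 3), with Odc1 (−0.29), the first enzyme of polyamine synthesis, and Mthfd1 (−0.28), a folate enzyme, among the lower ones. No called member of the list differed by more than 0.38 in absolute value.

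In cholesterol synthesis, 5 of 16 tested members were lower and 2 higher in RPL3L OE than in RPL3 OE, with 3 lower without RPL3 OE replicate 3. The enzyme gene Mvk (mevalonate kinase, −0.40 ± 0.08) was lower, while Sqle (squalene epoxidase, 0.33 ± 0.04) and Srebf2 (the master regulator of the pathway, 0.31 ± 0.04) were higher (log2 ± SE). Mvk gave 71.9, 72.1 and 66.8 CPM in RPL3L OE, 88.8, 103 and 87.4 CPM in RPL3 OE and 71.4, 65.1 and 69.5 CPM in the controls, so that only RPL3 OE stood apart. For this list, 7 members were higher and 1 lower in RPL3 OE against the controls, beside 9.08% and 8.38% of all tested genes. In RPL3L OE against the controls, 3 were higher and 0 lower, beside 5.24% and 4.71%. Among 24 genes of fatty acid synthesis and lipid storage, Acsl6, a ligase that activates long-chain fatty acids (1.09 ± 0.17), and Lpin3, a phosphatidate phosphatase (0.77 ± 0.08), were higher, and 3 members, including the nuclear receptor Pparg (−0.35), were lower. Fatty acid oxidation had 3 of 18 members lower (1 without RPL3 OE replicate 3) and 0 higher. The tricarboxylic acid cycle had 4 of 17 lower and 2 higher (1 without RPL3 OE replicate 3), and the nuclear-encoded respiratory chain 4 of 29 lower and 3 higher (1 without RPL3 OE replicate 2). The shares called in these 3 lists were 16.7%, 35.3% and 24.1%, beside 27.7% of all tested genes.

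Extracellular matrix genes differed in both directions. Matrix lists are read against the 13.5% higher and 14.2% lower among all tested genes. Of 8 tested collagen genes, 4 were lower and 1 higher. Col1a1 (chr11:94936224-94953042), the α1 chain of type I collagen, gave 937, 965 and 927 CPM in RPL3L OE, 1748, 1702 and 1729 CPM in RPL3 OE and 779, 790 and 717 CPM in the controls (log2 −0.87 ± 0.04, SE; adjusted p = 1.1e-30). Both overexpressing groups exceeded the controls, and RPL3 OE did so by more. Its partner chain Col1a2 fell by 0.52 ± 0.03 (SE), Col16a1 by 0.51 and Col5a1 by 0.18, whereas Col7a1, the anchoring fibril collagen, was higher (0.81).

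Among 30 matrix glycoproteins and proteoglycans, 10 were lower and 5 higher, and 3 were higher without RPL3 OE replicate 3. The nidogens, which link laminin and collagen IV in basement membranes, moved in opposite directions. Nid1 was at 1317, 1283 and 1348 CPM in RPL3L OE and at 809, 756 and 836 CPM in RPL3 OE (log2 0.72 ± 0.04, SE), while Nid2 was at 77.4, 73.2 and 82.7 CPM in RPL3L OE and at 114, 119 and 123.2 CPM in RPL3 OE (log2 −0.61 ± 0.07, SE). Neither pair of groups overlapped. The proteoglycan Bgn (biglycan) was lower, with 1444, 1456 and 1457 CPM against 2181, 2217 and 2106 CPM (log2 −0.58 ± 0.03, SE). Fbln1 (fibulin 1) was higher (log2 0.73 ± 0.08, SE) and Ccn2, a matrix-associated growth factor, lower (log2 −0.54 ± 0.05, SE). Ccn2 was nevertheless above the controls (185, 204 and 194 CPM) in both overexpressing groups, with 354, 318 and 351 CPM in RPL3L OE and 489, 472 and 520 CPM in RPL3 OE. Against the controls, 11 members of the list were higher and 2 lower in RPL3L OE, beside 5.24% and 4.71% of all tested genes. In RPL3 OE, 14 were higher and 3 lower, beside 9.08% and 8.38%.

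Enzymes that process or cut the matrix were also split. Of 13 cross-linking and collagen processing enzymes, 5 were lower, including the procollagen peptidase Adamts2 (−0.52), and 2 were higher, P4ha2 and Loxl2. Of 24 matrix proteases and their inhibitors, 7 were higher and 5 lower, with 4 higher without RPL3L OE replicate 3. Plau, the urokinase-type plasminogen activator, gave 250, 234 and 236 CPM in RPL3L OE and 131, 116 and 127 CPM in RPL3 OE, on either side of the controls (149, 161 and 159 CPM; log2 0.94 ± 0.06, SE). Adamts4 (1.27 ± 0.21), an aggrecanase, and Adamts7 (0.87 ± 0.08) were higher. The gelatinase Mmp2 was lower, at 144.9, 155 and 147 CPM in RPL3L OE against 226, 246 and 242 CPM in RPL3 OE, with the controls (153, 142 and 144 CPM) at the level of RPL3L OE. Mmp14, its membrane-bound activator, was lower as well (−0.32), as was the serine protease Htra1 (−0.45).

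Markers of fibroblasts and fibro-adipogenic cells moved with these matrix genes. Of 19 such markers with a line in the table, 14 were tested, and 7 of them were lower and 0 higher in RPL3L OE in every fit, with a median log2 fold change of −0.407. Their summed level was 8238 to 8289 CPM in RPL3L OE, 11360 to 11620 CPM in RPL3 OE and 8427 to 8567 CPM in the controls. The sum contains Col1a1 and Col1a2, which the collagen list also holds. The share of these markers called was 50.0%, beside 27.7% of all tested genes. Thy1 was at 0 in all 9 libraries, and Dpt and Lum were at 3 counts or fewer, while Pdgfrb (−0.56), Cd248 (−0.84) and S100a4 (−0.52) were lower in RPL3L OE. In bulk samples, fewer cells of a type and less RNA per cell cannot be told apart, and the part of these markers in the matrix differences was not tested.

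Among 52 integrins, cadherins and adhesion receptors, 9 were higher and 5 lower, a share of 26.9% called beside 27.7% of all tested genes. F11r, the junctional adhesion molecule A, had the largest increase (17.4, 16.7 and 13.4 CPM in RPL3L OE against 3.85, 3.43 and 6.58 CPM in RPL3 OE; log2 1.70 ± 0.24, SE). Cdh15 (M-cadherin, 0.76 ± 0.05) and Itga7 (the laminin-binding α7 integrin, 0.57 ± 0.04), both typical of myoblasts, were higher, and Itgb5 (−0.47 ± 0.05) and Itgav (−0.20 ± 0.06), which pair as a vitronectin receptor, were lower (log2 ± SE).

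Of 39 actin cytoskeleton genes and targets of serum response factor, 10 were higher and 5 lower, with 8 lower without control replicate 2 and 3 lower when RPL3 OE replicate 1 was left out. The share called was 38.5%, beside 27.7% of all tested genes. Fhl1, a LIM protein of striated muscle, gave 376, 394 and 390 CPM in RPL3L OE, 274, 256 and 288 CPM in RPL3 OE and 274, 270 and 268 CPM in the controls (log2 0.50 ± 0.05, SE). Here RPL3L OE alone stood apart. The focal adhesion genes Vcl (vinculin, 0.39) and Tes (testin, 0.51) were higher too. Against the controls, 18 members were higher and 1 lower in RPL3L OE, beside 5.24% and 4.71% of all tested genes. In RPL3 OE, 15 were higher and 4 lower, beside 9.08% and 8.38%. Of 11 targets of YAP and TEAD, 5 were lower, among them Crim1 (−0.83) and F3, the tissue factor that starts coagulation (−0.98 ± 0.16), and 2 were higher, among them Tead2 (0.69), itself a TEAD factor.

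Signaling pathways were represented by ligands, receptors and inhibitors that did not all move one way. Their counts are read against the 13.5% higher and 14.2% lower among all tested genes. In TGF-β and BMP signaling, 8 of 21 tested genes were higher and 4 lower, with 5 higher without RPL3 OE replicate 1. The ligand gene Inhba, a subunit of activin, was at 85.2, 87.0 and 85.5 CPM in RPL3L OE and at 120, 122.7 and 133 CPM in RPL3 OE (log2 −0.55 ± 0.07, SE). Fstl3, a secreted inhibitor that binds activin, moved the other way, with 46.2, 51.3 and 55.7 CPM against 24.6, 17.7 and 21.1 CPM (log2 1.29 ± 0.12, SE). The BMP target Id3 was higher (0.39).

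Wnt signaling had 10 of 23 members lower and 1 higher (0 without RPL3 OE replicate 3 or RPL3L OE replicate 1, 2 without RPL3 OE replicate 2), with a median log2 fold change of −0.172. The ligands Wnt4 (6.08, 6.42 and 5.07 CPM in RPL3L OE against 12.4, 13.7 and 14.7 CPM in RPL3 OE; log2 −1.23 ± 0.24, SE) and Wnt10a (−0.82) were lower. The secreted Wnt antagonist Sfrp2 was lower as well, from 6.03 ± 1.60 CPM in RPL3 OE to 1.43 ± 0.353 CPM in RPL3L OE (SD, n = 3; log2 −2.06 ± 0.40, SE). Against the controls, 8 members of the list were higher and 1 lower in RPL3 OE, beside 9.08% and 8.38% of all tested genes. In RPL3L OE, 1 was higher and 2 lower, beside 5.24% and 4.71%. Of 40 genes of fibroblast growth factor and receptor tyrosine kinase signaling, 9 were lower, among them the ligands Fgf7 (−1.13), Vegfd (−0.92) and Bdnf (−0.79), and 6 were higher, among them the hepatocyte growth factor receptor Met (0.41) and the MAP kinase phosphatases Dusp2 (1.14), Dusp10 (0.67) and Dusp4 (0.53). The fibroblast growth factor list had 37.5% of members called. In the Notch list, 41.7% of 12 members were called, beside 27.7% of all tested genes. Of these, 4 were lower (2 without RPL3L OE replicate 1), with the ligand-like Dlk2 at −1.36, and 1 was higher, Numbl (0.41), whose call was lost without RPL3L OE replicate 2. The higher members numbered 2 without RPL3 OE replicate 1. The Hedgehog signal transducer Smo was higher (0.31).

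Guidance molecules were split, with 7 of 25 semaphorins, ephrins, netrins, Slits and their receptors higher, led by Robo1, and 6 lower, among them the semaphorin and VEGF receptor Nrp2 (−0.52) and Sema5a (−0.48). Among 45 chemokines, cytokines and NF-κB targets, 9 were lower and 7 higher, with 3 or 4 higher when RPL3 OE replicate 3 or 1, respectively, was left out. With DESeq2, 6 were lower and 4 higher. Beside Cxcl12 and Ptgs2, the chemokines Cxcl5 (−1.88) and Ccl2 (−1.09) were lower, whereas Ptgs1, the constitutive prostaglandin synthase, was higher (0.74). Of 7 tested complement and coagulation genes, 4 were lower, among them C1rb (−1.28) and Pros1, the gene of anticoagulant protein S (−0.65), and 1 was higher, the plasminogen activator Plat (0.37), whose call was lost without RPL3L OE replicate 3. Immediate-early genes had 10 of 27 members higher and 4 lower: Dusp2 and Maff (0.69) were higher and Egr1 lower, at 70.0, 77.5 and 83.2 CPM in RPL3L OE against 110, 120 and 101 CPM in RPL3 OE. Interferon-stimulated genes had 1 of 18 members higher and 1 lower (2 without RPL3L OE replicate 2). Targets of p53 had 2 of 21 members higher and 1 lower. Without RPL3 OE replicate 2 or 3, 1 was higher and 2 lower, and without RPL3L OE replicate 2, 1 was higher. The interferon and p53 lists had 11.1% and 14.3% of members called, below the 27.7% of all tested genes. The guidance list had 52.0% called, the chemokine list 35.6%, the complement list 71.4% and the immediate-early list 51.9%.

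Of 37 genes of DNA replication and the G1/S transition, 13 were lower and 2 higher (40.5% called, beside 27.7% of all tested genes) and 22 were not called, but 8 were lower without RPL3 OE replicate 3 or without RPL3L OE replicate 3. The histone chaperone Asf1b (−0.39), the origin recognition subunit Orc6 (−0.35) and the E2F partner Tfdp1 (−0.26) were lower. The activators E2f2 (51.4, 52.1 and 54.6 CPM in RPL3L OE against 33.8, 34.0 and 30.6 CPM in RPL3 OE; log2 0.70 ± 0.11, SE) and Ccnd3, a D-type cyclin (0.38), were higher. Against the controls, 8 members were lower and 0 higher in RPL3L OE, beside 4.71% and 5.24% of all tested genes. In RPL3 OE, 5 were higher and 2 lower, beside 9.08% and 8.38%. Mitosis genes had 29.6% of 54 members called, close to the share of all genes, with 9 higher, among them Ube2c (0.30) and Tpx2 (0.28), and 7 lower, among them the condensin subunit Smc4 (−0.30). The lower mitotic genes numbered 4 without RPL3 OE replicate 1, 3 without RPL3L OE replicate 3 and 4 with DESeq2 or with library totals in place of TMM. Replication-dependent histones had 6 of 28 members lower and 0 higher (21.4% called), but 2 were lower without RPL3 OE replicate 1 or RPL3L OE replicate 2. In the footprints, 0 were called. Most histone mRNAs of this kind lack a poly(A) tail, and the libraries were made from poly(A) RNA.

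Of 27 tested proteasome genes, 9 were lower and 0 higher (median −0.044), with Psmc1, an ATPase of the regulatory particle, at 562, 599 and 544 CPM in RPL3L OE against 687, 660 and 681 CPM in RPL3 OE (log2 −0.25 ± 0.04, SE), and Psma6 (−0.23), Psma3 (−0.21) and the assembly factor Pomp (−0.23) close to it. Autophagy and lysosome genes had 21.1% of 57 members called, below the 27.7% of all tested genes, with 10 higher, among them Map1lc3a, which marks autophagosomes (0.48), and 2 lower, among them the lysosomal membrane protein Lamp1 (−0.25). The lower members numbered 4 without RPL3 OE replicate 2 or RPL3L OE replicate 3. Cytosolic heat shock proteins had 4 of 19 members higher, with their transcription factor Hsf1 at 0.33, and 5 lower, with the co-chaperone Dnajb1 at −0.27. The higher members numbered 1 if RPL3 OE replicate 2 was left out and 2 if RPL3 OE replicate 1 was. Endoplasmic reticulum chaperones had 2 of 22 members higher (1 without control replicate 3, RPL3 OE replicate 2 or 3, or RPL3L OE replicate 3), with Hspa5 (BiP) at 0.16, and 5 lower, with Herpud1 at −0.28 and Pdia6 at −0.25. The shares called were 33.3% for the proteasome, 47.4% for heat shock proteins and 31.8% for endoplasmic reticulum chaperones, beside 27.7% of all tested genes.

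Membrane transport, steroid and developmental lists gave single genes with large differences. The ion channel list, drawn by name pattern, had 8 of 35 members higher and 5 lower, but Tmem165 and Tmem167 among the lower ones are Golgi membrane proteins and not channel subunits. The acetylcholine receptor subunit gene Chrnd was at 126, 114 and 113 CPM in RPL3L OE, 80.8, 66.5 and 78.5 CPM in RPL3 OE and 138, 124 and 135 CPM in the controls (log2 0.64 ± 0.08, SE), and Ano5, a membrane protein of muscle, was higher by 1.19 ± 0.28 (SE). The 93 solute carriers had 10 members higher and 15 lower, a share of 26.9% beside 27.7% of all tested genes. In steroid and retinoid metabolism, 2 of 22 members were higher and 4 lower, a share of 27.3% beside 27.7% of all tested genes. The higher ones were Cyp11a1, the first enzyme of steroid synthesis (3.62 ± 0.40), which was the largest change of the list, and Stard5, a lipid transfer protein (1.15 ± 0.25). The lower ones included Dhrs3, a retinaldehyde reductase (2.77, 5.13 and 3.46 CPM in RPL3L OE against 9.18, 10.8 and 11.2 CPM in RPL3 OE; log2 −1.46 ± 0.28, SE), the retinoic acid-binding Crabp2 (−0.72) and Cyp39a1 (−0.39), whose call was lost without any single RPL3 OE or RPL3L OE library. The imprinted gene Mest was higher (10.8, 12.8 and 12.2 CPM against 2.96, 5.01 and 4.25 CPM; log2 1.53 ± 0.26, SE), one of 5 higher (3 without RPL3 OE replicate 3) and 1 lower (2 without RPL3 OE replicate 2) among 14 tested imprinted genes. The 24 homeobox genes had 5 members higher (3 without RPL3 OE replicate 2 or 3 or RPL3L OE replicate 3) and 3 lower, and the 41 DNA repair genes had 4 higher (2 without RPL3 OE replicate 1) and 5 lower (3 without RPL3 OE replicate 3). The homeobox and DNA repair lists had 33.3% and 22.0% called, beside 27.7% of all tested genes. The ion channel list had 37.1% called and the imprinted list 42.9%.

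Markers of the myoblast identity of the cells were present in every library. Of 12 tested myoblast and satellite cell markers, 5 were higher and 3 lower in RPL3L OE than in RPL3 OE, and their summed level was 14180 to 14740 CPM in RPL3L OE, 13280 to 13520 CPM in RPL3 OE and 13420 to 13510 CPM in the controls. Des, the intermediate filament protein of muscle, was higher by 0.76 on the log2 scale. The 3 lower markers were Spry1, Cd34 and Cav1, of which Spry1 was not called without RPL3 OE replicate 1 or RPL3L OE replicate 2. The share of the list called was 66.7%, beside 27.7% of all tested genes. Against the controls, 6 markers of the list were higher and 2 lower in RPL3L OE, beside 5.24% and 4.71% of all tested genes. In RPL3 OE, 2 were higher and 5 lower, beside 9.08% and 8.38%. Of 21 endothelial and blood cell markers with a line in the table, 5 were at 0 in all libraries (Adgre1, Alas2, Cd8a, Cldn5 and Tyrobp), 9 more were at 3 counts or fewer, and 4 were tested. The α-globin genes Hba-a1 and Hba-a2, near-identical copies, were called higher, and 0 of them remained without RPL3L OE replicate 3. Adipoq, Cfd, Cidea, Lep and Retn were at 0 among the adipocyte markers, of which 6 were tested and 1 was lower (2 without RPL3 OE replicate 1). Osteoblast and cartilage markers had 4 of 8 tested members higher and 2 lower (1 without RPL3L OE replicate 1), tendon markers 1 of 4 higher and 2 lower, and neural and Schwann cell markers 3 of 8 higher and 3 lower. Nefl, the light neurofilament chain, was the largest change of the neural list (0.69). Nes and Tubb3 were higher as well, and Map2, Stmn2 and Pmp22 were lower. Map2 was not called without RPL3 OE replicate 2 or 3 or RPL3L OE replicate 1 or 3.

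The contrast of each overexpressing group with the same 3 control libraries shows on which side of the controls each group lay. The values share their controls and are therefore only set side by side. Pdlim3 had a log2 fold change against the controls of −2.61 ± 0.17 (SE) in RPL3 OE and 0.33 ± 0.11 (SE) in RPL3L OE. Igfbp2, Robo1, F11r, Loxl2, Plau, Nid1, Des and Cdh15 were likewise called lower in RPL3 OE and higher in RPL3L OE. A second set, with Col1a1, Col5a1, Nid2, Ccn2, Inhba and Ptgs2, was called higher in both groups, by more in RPL3 OE. Mt2, Gsta1 and the metallothionein Mt1, which the rule does not name, were called lower in both, by more in RPL3L OE. Fth1 and Aldh3a1 were called higher in RPL3 OE and lower in RPL3L OE.

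**Figure D4:**
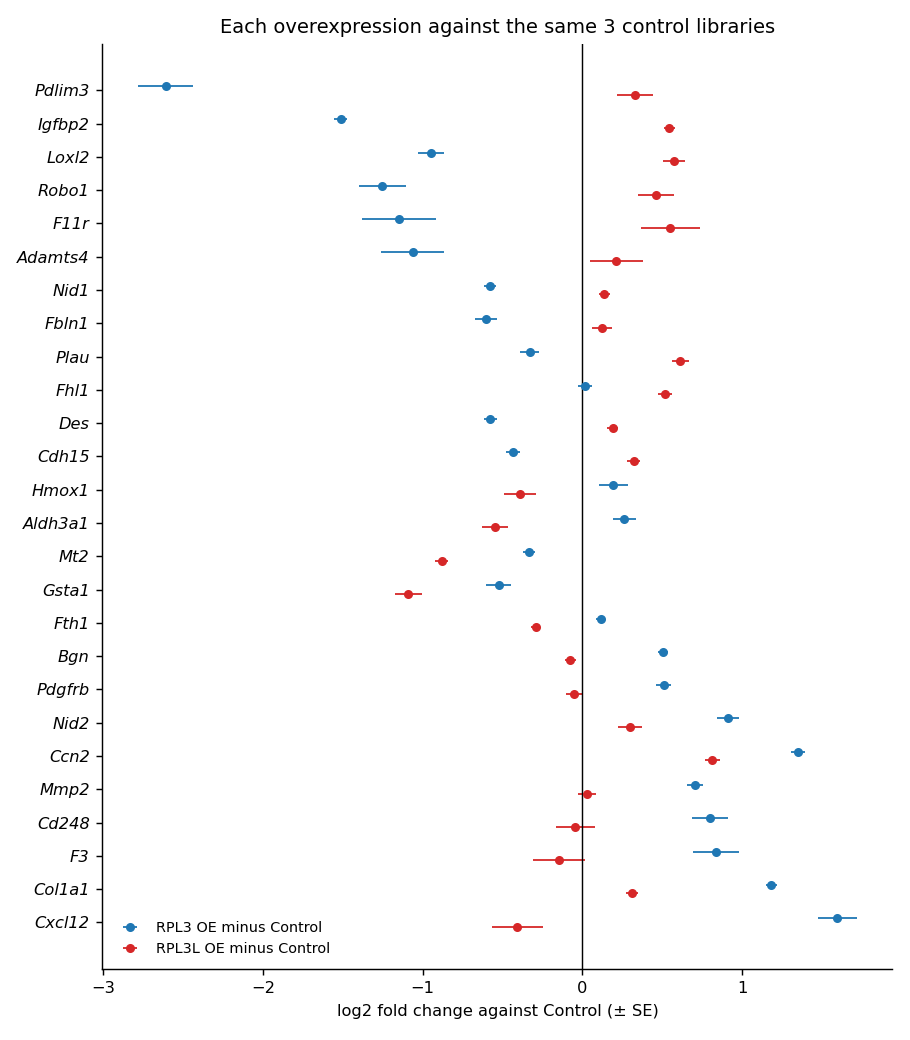
Log2 fold change of 26 named genes in RPL3 OE (blue) and RPL3L OE (red), each against the same 3 control libraries (RNA-seq; bars are SE). The points lie on opposite sides of 0 for Igfbp2 (−1.51 and 0.54) and on the same side for Col1a1 (1.18 and 0.31) and Mt2 (−0.33 and −0.88).

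The ribosome footprint counts of separate Ribo-seq libraries from the same cell lines, 3 per group, gave a second readout of the comparison. They contain the effect of mRNA level and are not independent of it in biology, but they come from other libraries. In Ribo-seq, 1083 of 5600 genes (19.3%) were called between RPL3L OE and RPL3 OE. Of the genes called higher in RNA-seq, 748 were also tested in Ribo-seq, and 358 of these (47.9%) were called higher and 1 lower. Of 794 tested genes called lower in RNA-seq, 353 (44.5%) were called lower and 1 higher. The exceptions were Zfhx3, a zinc finger homeobox gene (0.28 in RNA-seq, −0.25 in Ribo-seq), and C1d, a nuclear exosome cofactor (−0.22 in RNA-seq), the latter named for this and not by the rule. The RNA-seq call of Zfhx3 was lost when RPL3 OE replicate 2 was left out, and that of C1d when RPL3 OE replicate 3 or RPL3L OE replicate 3 was. For the leading genes, both readouts had similar sizes: Pdlim3 was 2.94 ± 0.18 in RNA-seq and 2.49 in Ribo-seq, Igfbp2 2.05 and 1.61, Cxcl12 −2.003 and −1.59, and Col1a1 −0.87 and −0.76 (log2). P4ha2 was 0.63 in RNA-seq and 0.09 in Ribo-seq, where it was not called; the difference between the readouts was not tested.

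**Figure D5:**
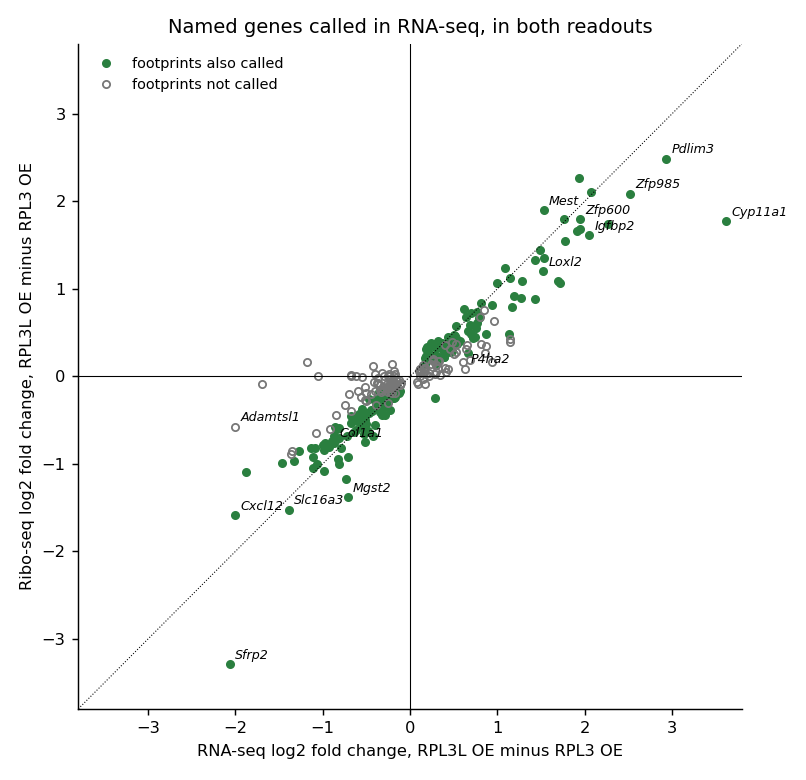
Log2 fold change (RPL3L OE minus RPL3 OE) in RNA-seq on the horizontal axis and in Ribo-seq on the vertical axis for the 322 named genes other than Rpl3l that were called in RNA-seq and tested in Ribo-seq. Filled points (191 genes) were also called in Ribo-seq; 301 of the 322 points have the same sign in both readouts, and the dotted line marks equal values.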

How the data were processed

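RNA-seq libraries were made from poly(A) RNA with a strand-specific kit. According to the labels, the authors trimmed reads with cutadapt, aligned them with STAR and counted them with featureCounts on GRCm38.p6 (mm10). Tool versions, the strand setting and the handling of multiply mapped RNA-seq reads are not given in the sources used here, and reads of overlapping antisense genes may therefore be mixed. The deposited values are raw counts per transcript, and RNA-seq and Ribo-seq columns of 18 C2C12 libraries were used. Each transcript stood on 2 identical lines, of which 1 was kept. Of 23877 transcripts, 23662 matched GENCODE M21, all on the plus strand, and 215 without a match were left out.

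For each gene, the transcript of highest mean count entered edgeR (version 4.0.16, R 4.3.3) with TMM factors (0.9908 to 1.0091 for RNA-seq) and a quasi-likelihood fit of group over 9 libraries per assay. Genes needed a mean count of at least 10. Tests were two-sided with Benjamini-Hochberg adjustment, and SE is the absolute log2 fold change divided by the square root of F. Replicates of a group differed by more than sampling noise (chi-square per degree of freedom 1.64 to 3.03), so none was counted as a repeat sequencing of another. These values do not show from which cultures or infections the libraries came. The fit was also run on counts simulated from the model that it fits, with fewer changed genes than were called here. Such a run cannot check that model on these data, and no conclusion is drawn from it.

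The rule for named genes first took genes called without overlap of 3 against 3 libraries. It named their 15 largest increases and decreases with a mean count of at least 100 and 10 smallest p-values in each direction. Up to 4 called members per gene list and direction were added, whether or not their libraries overlapped. Where a list had no such member, its 2 most abundant members were named. Genes of the muscle lists were left out unless another part of the rule named them. The comparison, the gene lists and the named genes were chosen with earlier results of these data known. The alternatives were other filters, library totals, DESeq2 (version 1.42.0), 6 libraries, all transcripts, a replicate block and leaving out each library. Some genes are not reported here.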

Additional observations from a re-analysis of the deposited data

How the results depend on the processing

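Between RPL3L OE and RPL3 OE, 1268 (without RPL3 OE replicate 3) to 1624 (without control replicate 2) genes were called when 1 library was left out, 1313 with DESeq2 and 1562 with 6 libraries, beside 1587. Library totals in place of TMM gave 862 higher and 710 lower genes, so that 54.8% rather than 48.6% of calls were higher. List counts moved with the method too. Endoplasmic reticulum chaperones had 1 rather than 2 members higher with DESeq2 or the replicate block, as had endothelial and blood cell markers with DESeq2. Library totals gave 5 rather than 3 higher translation factors, and 4 rather than 2 higher genes of fatty acid synthesis and lipid storage. Counting calls per transcript gave 3899 for this comparison, 1336 for RPL3L OE against the controls and 2321 for RPL3 OE against the controls, because several transcripts of a gene were then counted. RPL3L OE against the controls gave 379 genes with DESeq2 and 355 to 571 when 1 library was left out, with 355 without control replicate 3 and 377 without RPL3L OE replicate 2; the cause was not tested. RPL3 OE against the controls gave 719 to 1028 genes when 1 library was left out. The Ribo-seq comparison gave 800 to 1114. The 2 contrasts with the controls could not be fitted with 6 libraries, which hold no controls.

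Deviations of same-numbered libraries of different groups had correlations of −0.079 to 0.048, beside −0.115 to 0.132 for differently numbered ones. Such values cannot show whether the replicate number pairs samples, because a small shared effect would look alike. With the replicate number as a block, 1528 genes were called between RPL3L OE and RPL3 OE and 1094 in Ribo-seq. The block gave 514 and 947 genes for RPL3L OE and RPL3 OE against the controls. Of 1587 called genes, 907 kept their call in every one of 9 fits without 1 library and in 5 other fits, and 0 changed sign when 1 library was left out. Depth limits genes with a mean count near 10.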

Other observations

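Several genes best known from immune and blood cells were among the called genes outside every list, and they are named here after their values were seen. All of them were higher in RPL3L OE, but genes of this kind outside the lists were not counted in either direction. Cd40, a receptor of the tumor necrosis factor family, was at 8.02, 10.5 and 14.1 CPM in RPL3L OE, 1.48, 0.264 and 1.16 CPM in RPL3 OE and 7.37, 8.05 and 9.51 CPM in the controls (log2 3.47 ± 0.38, SE). The RPL3 OE libraries stood apart. Selp, the adhesion molecule P-selectin, had the same pattern, with 6.92 to 11.8 CPM in RPL3L OE, 1.93 to 2.11 CPM in RPL3 OE and 8.05 to 13.8 CPM in the controls. Aim2, a sensor of cytosolic DNA, was at 25.2, 27.5 and 24.4 CPM in RPL3L OE and at 9.18, 7.65 and 11.2 CPM in RPL3 OE (log2 1.43 ± 0.19, SE). Siglecg, a sialic acid-binding lectin, was at 20.3 to 22.3 CPM in RPL3L OE and at 10.1 to 10.3 CPM in RPL3 OE (log2 1.06 ± 0.20, SE). The mean counts of Cd40, Selp, Aim2 and Siglecg were 41.3, 48.4, 95.7 and 77.7 reads, so that these levels rest on few reads. In Ribo-seq, Cd40 (2.62), Selp (1.23) and Aim2 (1.52) were called in the same direction, and Siglecg (0.48) was not called. The general blood cell markers Tyrobp and Adgre1 were at 0 in all 9 libraries. Itgb2, an integrin gene of the adhesion list that is also known from immune cells, was lower in RPL3L OE. Its log2 fold change was −1.94 to −1.50 over the fits that left out a library.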
